A study of Mus musculus with 105 samples.

Results

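The 8 genes described here are the D-type cyclins Ccnd1, Ccnd2 and Ccnd3, the E-type cyclins Ccne1 and Ccne2, and the cyclin-dependent kinase (CDK) inhibitors Cdkn1a, Cdkn1b and Cdkn2a, which together govern passage through the G1 phase of the cell cycle. They were chosen by name, as 8 of the 52108 genes in the bulk count tables and 8 of the 34120 genes in the table of single cells, and all 8 passed the filter on low counts in both bulk tables. They were followed over days 0 to 4 of differentiation of female mouse embryonic stem cells (mESCs), in 45 bulk RNA-seq libraries from 3 lines and in 1472 single cells.

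D-type cyclins bind Cdk4 and Cdk6, E-type cyclins bind Cdk2, and the kinases they activate phosphorylate the retinoblastoma family (pocket proteins) and so release E2F factors, which switch on genes for DNA replication. Cdkn1a (p21) and Cdkn1b (p27) restrain Cdk2 complexes, and Cdkn1a is a classical target of the p53 tumour suppressor. The Cdkn2a locus encodes both p16Ink4a, an inhibitor of Cdk4 and Cdk6, and p19Arf, an activator of p53, from overlapping reading frames. mESCs grown in serum and LIF, without inhibitors of Gsk3 and MEK, are known for a short G1 phase with high cyclin E. They depend little on D-type cyclins, and their G1 lengthens as they differentiate. The day 0 cells described here were grown with both inhibitors, and the length of G1 was not measured.

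TX1072 (clone A3) is an F1 hybrid ESC line between the strains C57BL/6 (B6) and CAST/EiJ (Cast), so that many transcripts can be traced to the allele they came from by sequence variants. TX1072 and its derivatives were built so that doxycycline, acting through an rtTA transgene at Rosa26, can switch on Xist from the B6 X, and the descriptions of these samples mention no doxycycline. The line dXicB6 lacks a region around Xist, the RNA that silences the X chromosome, on the B6 X, and dXicCast lacks it on the Cast X. Each of these deletion lines is 1 clone. On day 0 all cells were grown on gelatin in serum with LIF and 2i, an inhibitor of Gsk3 (CT-99021) together with an inhibitor of MEK (PD0325901). Days 1 to 4 followed withdrawal of LIF and 2i on fibronectin. Each line and day had 3 bulk replicates, which were differentiated on separate days, and single TX1072 cells came from 1 culture per day, the same population as bulk replicate 1.

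Depth ran from 19827011 to 39628784 counts per library for TX1072 and from 16906263 to 57920260 for the deletion lines, and the 8 genes took between 0.0572% and 0.138% of them. The libraries of TX1072 and of the deletion lines were made with different kits and sequencers, so that levels were not compared between those tables. The RNA of the 3 dXicCast day 0 libraries was degraded and was fragmented more mildly than that of the other libraries. Differences of these libraries from any other group therefore cannot be told apart from RNA quality, and day 4 against day 1 is given beside them. The summed level of 7 ESC markers (Pou5f1, Sox2, Nanog, Zfp42, Esrrb, Klf4 and Tfcp2l1) in TX1072 was 5620 to 6280 counts per 1000000 (CPM) on day 0, and 950 to 1060 on day 4. That of 5 epiblast markers (Fgf5, Pou3f1, Otx2, Dnmt3a and Dnmt3b) was 255 to 320 on day 0, 3060 to 3140 on day 2 and 870 to 1030 on day 4. Markers of extraembryonic endoderm summed to 3.73 to 6.25 CPM on day 0 and to 36.6 to 56.7 on day 4, and those of fibroblasts to 23.6 to 32.6 and 14.5 to 16.3. Trophoblast markers summed to 65.6 to 98.4 CPM on day 0, 10.6 to 11.3 on day 1, 23.6 to 31.6 on day 2, 52.3 to 61.5 on day 3 and 97.4 to 101 on day 4. These sums hide opposite courses. From day 0 to day 4 the trophoblast marker Krt7 rose (log2 fold change 7.78), and Cdx2 (-2.32) and Tfap2c (-0.86) fell. Gata3 (-0.22) did not pass the test, and Elf5 was not tested. Of the fibroblast markers Twist2 (7.0) and Postn (5.0) rose, and Col1a2 (-2.41) and Col1a1 (-0.97) fell. The part of these markers in the changes given here was not tested. In bulk RNA fewer cells that express a gene and less of its RNA per cell cannot be told apart.

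On GRCm38, the build of the files, Ccnd1 lies at chr7:144929931-144939925, Ccnd2 at chr6:127125162-127152193, Ccnd3 at chr17:47505051-47599691, Ccne1 at chr7:38097984-38107534, Ccne2 at chr4:11191351-11204779, Cdkn1a at chr17:29090976-29100727, Cdkn1b at chr6:134920401-134925513 and Cdkn2a at chr4:89274471-89294653. None is X-linked. Ccne1, Cdkn1b and Cdkn2a overlapped no other annotated gene. Ccnd1 overlapped LTO1, Ccnd3 Bysl, Ccne2 Ints8, Cdkn1a an unnamed transcript (AC167363.2) and Ccnd2 the antisense genes 9330179D12Rik and Gm43126, all on the opposite strand, and whether the bulk counting used the strand is not given in the sources used here. The counts of Cdkn2a pool the transcripts of p16Ink4a and p19Arf.

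Sequence upstream of the start was found in the RefSeq promoter table (GRCm38.p6) for Ccnd3, Ccne1, Cdkn1a, Cdkn1b and Cdkn2a. A stretch is shown for Cdkn1a because it holds a p53 response element, and for Cdkn1b and Ccne1 as the other inhibitor and the E cyclin whose transcripts changed most within the first day. All are written 5′ to 3′ on the strand of the gene, chr17:29090869-29090969 (+) for Cdkn1a, chr6:134920231-134920381 (+) for Cdkn1b and chr7:38107542-38107615 (-) for Ccne1. Capitals mark the p53 response element in Cdkn1a, CCAAT and the GC box GGGCGG in Cdkn1b, and GGGCGG in Ccne1.
Cdkn1a: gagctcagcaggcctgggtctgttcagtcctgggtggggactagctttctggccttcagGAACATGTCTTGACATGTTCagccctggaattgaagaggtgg
Cdkn1b: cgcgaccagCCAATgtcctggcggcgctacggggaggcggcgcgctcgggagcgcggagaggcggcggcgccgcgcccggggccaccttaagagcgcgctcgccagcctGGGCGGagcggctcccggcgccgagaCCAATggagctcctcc
Ccne1: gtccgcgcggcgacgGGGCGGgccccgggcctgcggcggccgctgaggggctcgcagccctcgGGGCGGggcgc

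The p53 response element, searched by its consensus with at most 1 mismatch over 20 letters on both strands, lay from -51 to -32 of the first of 2 annotated Cdkn1a starts, with no match in the other window of the gene, and was found in 19 of all 32851 windows of 250 bases upstream of a start, or 0.0578%. GGGCGG was found in 32.7% of these windows and CCAAT in 33.8%, again on both strands. Of the E2F letters TTTCCCGC, TTTCGCGC, TTTGCCGC and TTTGGCGC, which 1.86% of windows held, the only match among the windows of the 8 genes was in a Cdkn2a window, from -99 to -92. These matches describe the letters of the windows only.

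In TX1072 the D-type cyclins took 3 different courses. Ccnd1 rose 3.15-fold within a day and lay below its starting level on the next, Ccnd2 appeared from near absence, and Ccnd3, the D cyclin with the highest level in naive cells, fell to 0.218 of it by day 4. The levels are CPM after TMM scaling, in the order of replicates 1, 2 and 3.

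Ccnd1 stood at 115, 118 and 89.7 CPM on day 0 and at 340, 338 and 336 on day 1, then at 68.4, 56.0 and 55.5 on day 2, 154, 132 and 121 on day 3, and 165, 175 and 187 on day 4. The 3 libraries of each day lay apart from those of every neighbouring day in the order of levels, which was day 1, day 4, day 3, day 0 and day 2. Against day 0 the log2 fold change was 1.65 ± 0.125 (SE) on day 1 (adjusted p = 5.27e-09), -0.84 ± 0.123 on day 2 (1.29e-05), 0.33 ± 0.122 on day 3 (0.0266) and 0.71 ± 0.122 on day 4 (6.61e-05). These comparisons share their day 0 libraries. The day 3 call was lost without replicate 1 (adjusted p = 0.139) or without replicate 3 (0.112).

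Ccnd2 was barely detected on day 0, with 5, 17 and 5 reads, or 0.135, 0.644 and 0.225 CPM. It reached 13.8, 10.5 and 13.9 CPM on day 1, dropped to 4.38, 2.77 and 3.30 on day 2, returned to 11.7, 12.8 and 14.6 on day 3 and stood at 5.02, 4.99 and 6.99 on day 4. Every later library lay above every day 0 library, and days 1 and 3 overlapped at the top. The log2 fold change against day 0 was 5.29 ± 0.342 on day 1 (adjusted p = 7.52e-10), 3.42 ± 0.356 on day 2 (1.92e-07), 5.33 ± 0.343 on day 3 (2.75e-10) and 4.13 ± 0.347 on day 4 (8.97e-09), on counts that are small on day 0. These values depend on replicate 2, which held 17 of the 27 day 0 reads. With 1 replicate left out at a time, the lowest being without replicate 1 and the highest without replicate 2, the log2 value was 4.75 to 6.31 on day 1, 2.75 to 4.45 on day 2, 4.93 to 6.24 on day 3 and 3.73 to 5.11 on day 4.

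Ccnd3 stood at 505, 542 and 701 CPM on day 0, 338, 447 and 405 on day 1, 118, 97.1 and 110 on day 2, 92.0, 99.0 and 99.8 on day 3, and 113, 135 and 133 on day 4. All libraries of days 2 to 4 lay far below those of days 0 and 1. The log2 fold change against day 0 was -0.56 ± 0.133 on day 1 (adjusted p = 0.00211), -2.43 ± 0.140 on day 2 (7.17e-11), -2.59 ± 0.141 on day 3 (2.79e-11) and -2.20 ± 0.138 on day 4 (1.66e-10). The day 1 call was lost without replicate 3 (adjusted p = 0.0748).

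The E-type cyclins differed from each other. Ccne1 rose to 1.88 times its naive level on day 1 and then declined day by day to below it. No change of Ccne2 passed the test on any day.

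Ccne1 stood at 214, 244 and 228 CPM on day 0, 418, 456 and 418 on day 1, 279, 287 and 270 on day 2, 201, 208 and 209 on day 3, and 154, 176 and 158 on day 4. No 2 days overlapped. The log2 fold change against day 0 was 0.91 ± 0.0915 on day 1 (adjusted p = 2.03e-07), 0.28 ± 0.0909 on day 2 (0.0126), -0.15 ± 0.0910 on day 3 (0.17) and -0.49 ± 0.0912 on day 4 (0.000132). The day 2 call was lost without a filter on low counts (adjusted p = 0.0611) and without replicate 1 (0.167) or replicate 3 (0.0813).

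Ccne2 ranged from 28.2 to 48.8 CPM over all 15 libraries, and each day overlapped its neighbour in the order of levels. Its log2 fold change lay between -0.34 ± 0.166 on day 2 (adjusted p = 0.0929) and 0.16 ± 0.166 on day 3 (0.441). The day 2 value passed with the replicate number as a block (-0.33, adjusted p = 0.0318) and without replicate 2 (-0.41, 0.0216).

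The CDK inhibitors Cdkn1a and Cdkn1b fell together within the first day, to 0.290 and 0.408 of their naive levels, and were higher again from day 2. On day 4 Cdkn1b stood at 1.04 times and Cdkn1a at 0.733 of the naive level, and the change of Cdkn1a passed the test. Cdkn2a was called lower than on day 0 on every later day in bulk RNA, while its single-cell level, given below without a test, was not lower.

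Cdkn1a stood at 119, 116 and 176 CPM on day 0, 33.6, 42.2 and 43.4 on day 1, between 87.4 and 122 on day 2, 81.2, 91.7 and 95.2 on day 3, and 74.5, 115 and 112 on day 4. Day 1 lay below all other days, days 2 to 4 overlapped, and replicate 3 was the highest on day 0. The log2 fold change was -1.78 ± 0.189 on day 1 (adjusted p = 4.1e-07), -0.46 ± 0.183 on day 2 (0.0417), -0.61 ± 0.184 on day 3 (0.00842) and -0.45 ± 0.183 on day 4 (0.0436). The day 4 call was lost with DESeq2 size factors (adjusted p = 0.051) and without replicate 1 (0.137) or replicate 3 (0.189), the day 2 call without any 1 replicate (0.0561 to 0.106) and the day 3 call without replicate 3 (0.077).

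Cdkn1b stood at 28.7, 22.4 and 31.3 CPM on day 0, 10.5, 10.9 and 12.3 on day 1, 21.4, 16.3 and 17.9 on day 2, 19.6, 25.9 and 21.4 on day 3, and 32.4, 23.4 and 30.1 on day 4. Day 1 again lay below all other days. The log2 fold change was -1.29 ± 0.159 on day 1 (adjusted p = 2.62e-06), -0.57 ± 0.156 on day 2 (0.00462), -0.30 ± 0.156 on day 3 (0.108) and 0.06 ± 0.155 on day 4 (0.773). The day 2 call was lost without replicate 3 (adjusted p = 0.12), and the day 3 value of -0.55 passed without replicate 2 (0.0047).

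Cdkn2a, the inhibitor with the fewest bulk reads, stood at 13.8, 12.6 and 15.1 CPM on day 0, 8.42, 11.6 and 8.17 on day 1, 9.02, 8.48 and 8.37 on day 2, 5.88, 5.49 and 6.07 on day 3, and 9.97, 9.28 and 9.45 on day 4. Day 0 lay above and day 3 below all other days. Set against day 0, the log2 fold change was -0.56 ± 0.142 on day 1 (adjusted p = 0.00346), -0.68 ± 0.143 on day 2 (0.000516), -1.24 ± 0.147 on day 3 (8.94e-07) and -0.53 ± 0.142 on day 4 (0.00361). The day 1 call was lost without replicate 1 (adjusted p = 0.0671) or replicate 3 (0.147), and the day 4 call without replicate 3 (0.0717).

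**Figure D1:**
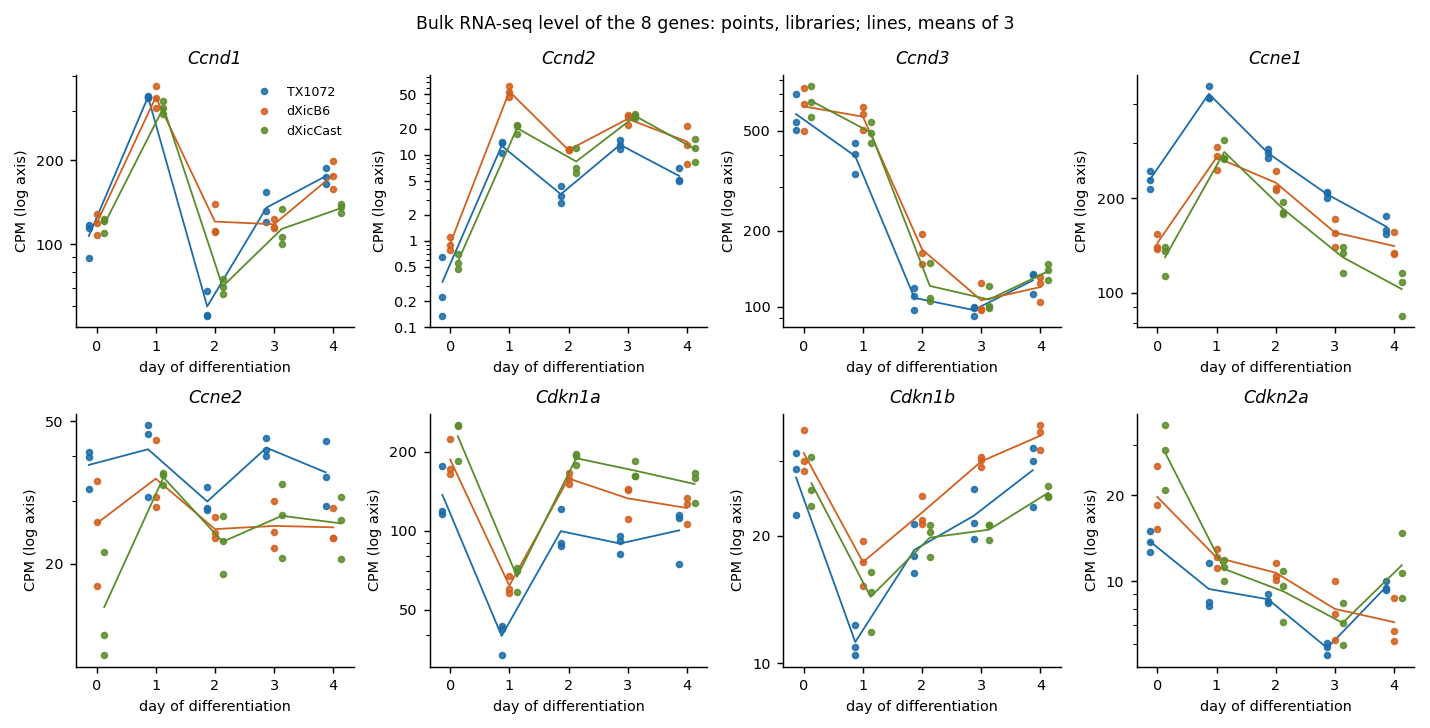
Bulk level of each of the 8 genes in CPM (log axis) by day of differentiation, with a point per library, a line through the means of the 3 replicates and a colour per line (TX1072, dXicB6, dXicCast). Ccnd1 and Ccne1 peak and Cdkn1a and Cdkn1b dip on day 1 in all 3 lines, and Ccnd3 falls after day 1. Levels of TX1072 and of the deletion lines come from different library kits.

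Counted over the genes, 7 of 8 differed from day 0 on day 1, 3 of them higher and 4 lower, where 47% of all 18871 tested genes were called, 23.5% higher and 23.4% lower. On day 2 it was again 7 of 8 (56% of all genes), on day 3 it was 5 of 8 (56.1%) and on day 4 it was 6 of 8 (59.6%). From day 1 to day 4, 6 of 8 changed (58.9% of all genes), with Cdkn1a and Cdkn1b higher and Ccnd1, Ccnd2, Ccnd3 and Ccne1 lower. Read against these backgrounds, 5 or 6 called of 8 is close to the share of all genes, and the size of the changes tells more of these genes than their count. Between day 1 and day 4 Ccnd1 fell by 0.94 and Ccne1 by 1.41 on the log2 scale, while Cdkn1a gained 1.34 ± 0.187 and Cdkn1b 1.35 ± 0.159 (adjusted p between 4.34e-10 and 6.92e-06 for these 4).

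Levels of different genes were compared per length, as RPKM, which divides the CPM by the length in kilobases. On day 0 the mean RPKM was 86.0 ± 5.77 (SD, n = 3) for Ccne1, 66.4 ± 11.8 for Ccnd3, 38.5 ± 9.54 for Cdkn1a, 22.8 ± 3.27 for Ccnd1, 11.8 ± 1.05 for Cdkn2a, 10.8 ± 1.35 for Ccne2, 6.04 ± 1.00 for Cdkn1b and 0.0356 ± 0.0288 for Ccnd2. The 3 libraries of Ccne1, at 80.3 to 91.8 RPKM, lay above those of Ccnd3, at 57.6 to 79.9, and the libraries of Cdkn2a and Ccne2 overlapped. On day 4 Ccne1 was still first, at 61.0 ± 4.35 RPKM, followed by Ccnd1 at 37.3 ± 2.37, Cdkn1a at 28.2 ± 6.31 and Ccnd3 at 14.5 ± 1.43. Among the D-type cyclins the order by RPKM had turned, with Ccnd3 ahead of Ccnd1 on day 0 and Ccnd1 ahead of Ccnd3 on days 1, 3 and 4. On day 2 these 2 were close, at 12.7 ± 1.55 RPKM for Ccnd1 and 12.4 ± 1.20 for Ccnd3. RPKM divides by the summed exon length of the annotation, not by the length of the isoform in use. The single-cell counts given below tag 3′ ends and are not divided by length, and they gave another order. There Ccnd3 had 810 CPM and Ccne1 236 on day 0, and 239 and 184 on day 4. Ccnd3 also lay ahead of Ccnd1 on day 1 (548 against 440), day 2 (151 against 83.0) and day 4 (239 against 214). On day 3 it lay behind Ccnd1 (169 against 214). The order between genes thus depends on the measure.

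The deletion lines went through the same withdrawal on different X-chromosomal backgrounds. Ccnd1, Ccnd2 and Ccne1 rose and Cdkn1a, Cdkn1b and Cdkn2a fell within a day in both lines. In dXicB6, 6 of 8 genes differed between day 0 and day 1 (45.7% of all 19885 genes tested), and in dXicCast, whose day 0 libraries were degraded, all 8 did (58.9%).

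In dXicB6 Ccnd1 stood at 108, 128 and 120 CPM on day 0 and at 334, 307 and 369 on day 1, a log2 fold change of 1.50 ± 0.112 (adjusted p = 1.21e-11). Ccnd2 went from 0.898, 1.10 and 0.776 CPM to 46.5, 53.4 and 62.6, a log2 fold change of 5.85 ± 0.331 (adjusted p = 4.74e-14). Cdkn1a went from 224, 164 and 172 CPM to 67.3, 58.1 and 60.0, a log2 fold change of -1.60 ± 0.139 (adjusted p = 2.49e-10). In each case the libraries of the 2 days lay far apart. The changes of Ccne1 (0.91), Cdkn1b (-0.86) and Cdkn2a (-0.71) also passed, the last not without replicate 1 (adjusted p = 0.0867), while Ccnd3 (-0.14, adjusted p = 0.488) and Ccne2 (0.42, 0.139) did not. Ccne2 passed with the replicate block (0.43, adjusted p = 0.0384) and without a filter on low counts (0.41, 0.0205).

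In dXicCast the same step gave 1.39 ± 0.112 for Ccnd1, 5.19 ± 0.346 for Ccnd2, 1.12 ± 0.115 for Ccne1, -1.78 ± 0.140 for Cdkn1a and -0.89 ± 0.123 for Cdkn1b on the log2 scale. Ccne2 was at 11.1, 21.7 and 12.7 CPM on day 0 and at 35.9, 33.3 and 35.5 on day 1 (log2 fold change 1.20 ± 0.233, adjusted p = 7.82e-05), and Cdkn2a was at 35.3, 20.9 and 28.8 CPM and then at 10.0, 11.2 and 11.9 (-1.36 ± 0.215, adjusted p = 5.03e-06). The part of RNA degradation in these 2 values was not tested.

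From day 1 to day 4, a comparison free of the degraded libraries, 7 of 8 genes changed in dXicB6 (56.6% of all genes) and 6 of 8 in dXicCast (59.4%). Ccnd1 fell by 0.92 in dXicB6 and by 1.20 in dXicCast on the log2 scale, Ccnd3 by 2.25 and 1.83, and Ccne1 by 0.94 and 1.45. Cdkn1a rose by 0.98 ± 0.137 and 1.17 ± 0.138 and Cdkn1b by 0.99 ± 0.121 and 0.82 ± 0.123. Ccnd2 fell by 1.92 ± 0.251 in dXicB6 and by 0.81 ± 0.251 in dXicCast, the latter not without replicate 1 (adjusted p = 0.102). For Cdkn2a the change was -0.76 ± 0.218 in dXicB6 (adjusted p = 0.00395, and 0.0738 without replicate 1) and 0.05 ± 0.215 in dXicCast, and the difference between the lines was not called (adjusted p = 0.273). Ccne2 passed in both lines with the replicate block (-0.43, adjusted p = 0.0327, and -0.46, 0.0228) and without a filter (-0.43, 0.0102, and -0.41, 0.015).

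Against day 0, 5 of 8 genes were called on day 4 in dXicB6 (59.5% of all genes) and 6 of 8 in dXicCast (69.8%). In both lines Ccnd2 was higher, by 3.93 ± 0.324 in dXicB6 and 4.38 ± 0.346 in dXicCast, and Ccnd3 lower, at -2.39 ± 0.158 and -2.25 ± 0.158. On the log2 scale the change was -0.61 ± 0.136 and -0.60 ± 0.136 for Cdkn1a and -1.47 ± 0.218 and -1.31 ± 0.213 for Cdkn2a. Ccnd1 was higher in dXicB6 (0.58 ± 0.111, adjusted p = 5.56e-05), with 0.19 ± 0.110 in dXicCast (0.124). In dXicCast Ccne1 was lower (-0.34, adjusted p = 0.0103, and 0.0914 and 0.277 without replicates 2 and 3) and Ccne2 higher (0.77, 0.00474).

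**Figure D2:**
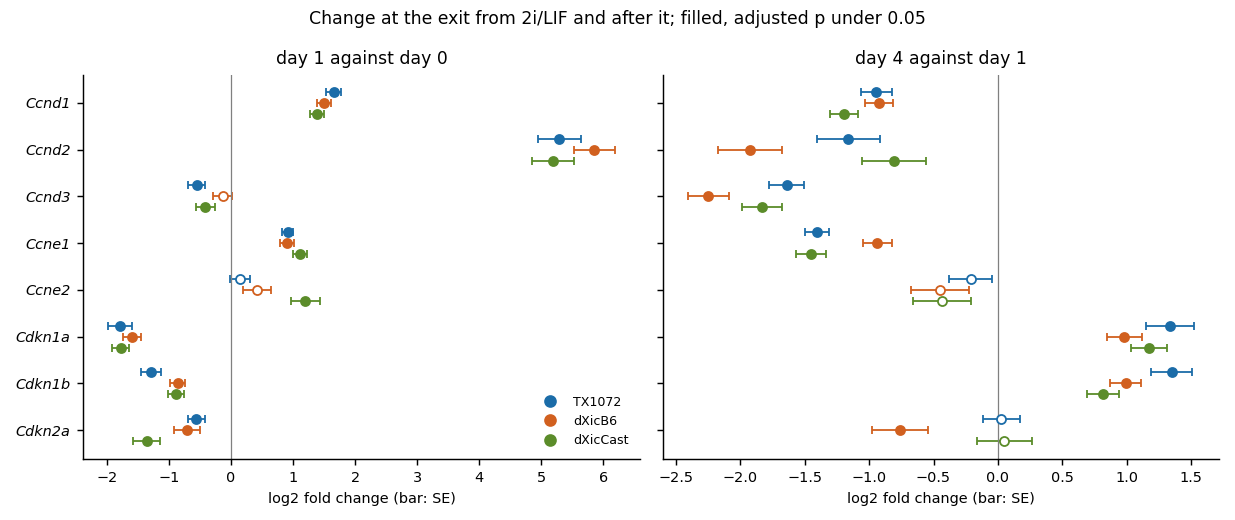
Log2 fold change of each of the 8 genes in TX1072, dXicB6 and dXicCast (one colour each) for day 1 against day 0 and for day 4 against day 1, with bars of 1 standard error from edgeR. Filled points have an adjusted p under 0.05 and open points do not. For day 1 against day 0 the points of Ccne2 and Cdkn2a in dXicCast, 1.20 and -1.36, stand away from those of the other lines.

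Set against each other on the same day, the deletion lines differed in few of these genes. On day 1, 1 of 8 genes was called, where 0.402% of all genes were. Ccnd2 was lower in dXicCast, at 21.6, 17.4 and 22.1 CPM against 46.5, 53.4 and 62.6 in dXicB6 (log2 difference -1.41 ± 0.248, adjusted p = 0.00417). The 2 lines did not overlap, and the call was lost without replicate 1 (-1.55, adjusted p = 0.199) or replicate 2 (-1.33, 0.164), settings in which 4 and 2 of all genes were called.

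On day 2 the called gene was Ccnd1 (0.372% of all genes), at 70.3, 66.6 and 75.1 CPM in dXicCast against 112, 140 and 111 in dXicB6 (-0.77 ± 0.111, adjusted p = 0.000398). The lines lay apart, and the call was lost without replicate 2 (-0.60, adjusted p = 0.413), where no gene at all was called. Ccnd3 passed without a filter (-0.47, adjusted p = 0.0352).

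On day 3, where 1.26% of all genes were called, the gene was Cdkn1b, at 21.2, 21.3 and 19.6 CPM in dXicCast against 29.1, 30.7 and 30.2 in dXicB6 (-0.54 ± 0.121, adjusted p = 0.0197). On day 4, where 5.86% were called, 3 of 8 genes were lower in dXicCast (1.85% of all genes were). Ccnd1 stood at 140, 136 and 129 CPM against 176, 200 and 158 (-0.40 ± 0.110, adjusted p = 0.0295), Ccne1 at 116, 108 and 84.4 against 156, 133 and 134 (-0.46 ± 0.114, 0.0143) and Cdkn1b at 24.9, 24.7 and 26.3 against 36.5, 35.2 and 31.9 (-0.45 ± 0.119, 0.0222). Each of the 4 calls on days 3 and 4 was lost when any 1 replicate was left out (adjusted p between 0.0522 and 0.339). Cdkn2a on day 4, at 10.7, 8.69 and 14.7 CPM against 6.14, 6.65 and 8.71, was at 0.68 ± 0.217 (adjusted p = 0.0654) and passed with DESeq2 (0.68, 0.0326) and without a filter (0.68, 0.00439), while Cdkn1b was lost without a filter (-0.45, 0.0515).

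The lines also differed in their marker levels on day 4. The epiblast markers summed to 685 to 1210 CPM in dXicCast and to 1260 to 1680 in dXicB6, those of trophoblast to between 100 and 136 CPM against 66.5 to 69.1, those of extraembryonic endoderm to 41.1 to 73.9 against 35.0 to 39.9, and those of fibroblasts to 23.8 to 31.3 against 16.9 to 23.2. In dXicCast 2 of 5 epiblast markers were called lower, and 2 of 5 trophoblast, 2 of 6 endoderm and 3 of 6 fibroblast markers higher (4.01% of all genes were higher). Of 20 S phase genes 4 were lower and 1 higher, and of 20 p53 targets 5 were higher. The part of these levels in the differences of the 8 genes was not tested.

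On day 0, where 19.8% of all genes were called and the dXicCast RNA was degraded, Ccne2 was called lower in dXicCast (-0.77 ± 0.232, adjusted p = 0.0196), but not without replicate 3 (-0.38, 0.458), and Cdkn2a passed without a filter (0.54, 0.0168). Whether the change from day 1 to day 4 differed between the lines was tested as an interaction. By edgeR 0 of 8 genes were called (0.749% of all genes), and DESeq2 also called 0. The unadjusted p of edgeR was 0.00359 for Ccnd2, 0.0034 for Ccne1 and 0.0132 for Cdkn2a. How many of all genes had an unadjusted p as low was not counted. The largest difference was that of Ccnd2, 1.12 ± 0.350 (adjusted p = 0.155), which passed only without a filter on low counts (0.000159).

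Of the 8 genes, as far as they had an allelic ratio on both days 0 and 4, Ccnd1 had the largest shift between its alleles in each of the 3 lines. In naive TX1072 cells 20.3% to 25.3% of its assigned reads came from the B6 allele, and on day 4 the share was 48.6% to 50.5%. Over all autosomal genes the B6 share was 51.0% to 51.4% in every TX1072 library and 50.5% to 51.0% in the deletion lines, with between 1347911 and 18668121 assigned reads per library.

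The B6 share of Ccnd1 reads in TX1072 was 25.3%, 23.2% and 20.3% on day 0, 32.3%, 29.5% and 29.9% on day 1, 39.9%, 45.2% and 36.7% on day 2, 49.2%, 47.3% and 50.2% on day 3, and 50.1%, 50.5% and 48.6% on day 4. No library of day 0, 1 or 2 overlapped another day. The day 0 shares rest on 637 B6 and 2069 Cast reads in all. The log2 ratio of B6 over Cast reads was -1.71 ± 0.0760 on day 0 (adjusted p = 2.8e-28), and it changed by 1.69 ± 0.0969 to day 4 (7.14e-22).

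Scaled as CPM of all assigned reads, Ccnd1 gave 41.0, 37.6 and 26.7 B6 reads and 121, 125 and 105 Cast reads on day 0, and 130, 128 and 147 B6 reads and 130, 126 and 156 Cast reads on day 4. Reads of the B6 allele lay far above their day 0 range on day 4, and those of the Cast allele just above it.

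In dXicB6 the B6 share was 20.2%, 27.3% and 24.4% on day 0 and 50.6%, 52.1% and 51.6% on day 4, a change of 1.62 ± 0.0893 in the log2 ratio (adjusted p = 2.95e-27). In dXicCast it was 20.6%, 23.7% and 22.2% and then 51.5%, 47.5% and 52.9%, a change of 1.85 ± 0.0852 (adjusted p = 1.31e-24). Of the 2018 genes of 13476 whose allelic ratio changed in TX1072, 459 changed by more than Ccnd1.

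**Figure D3:**
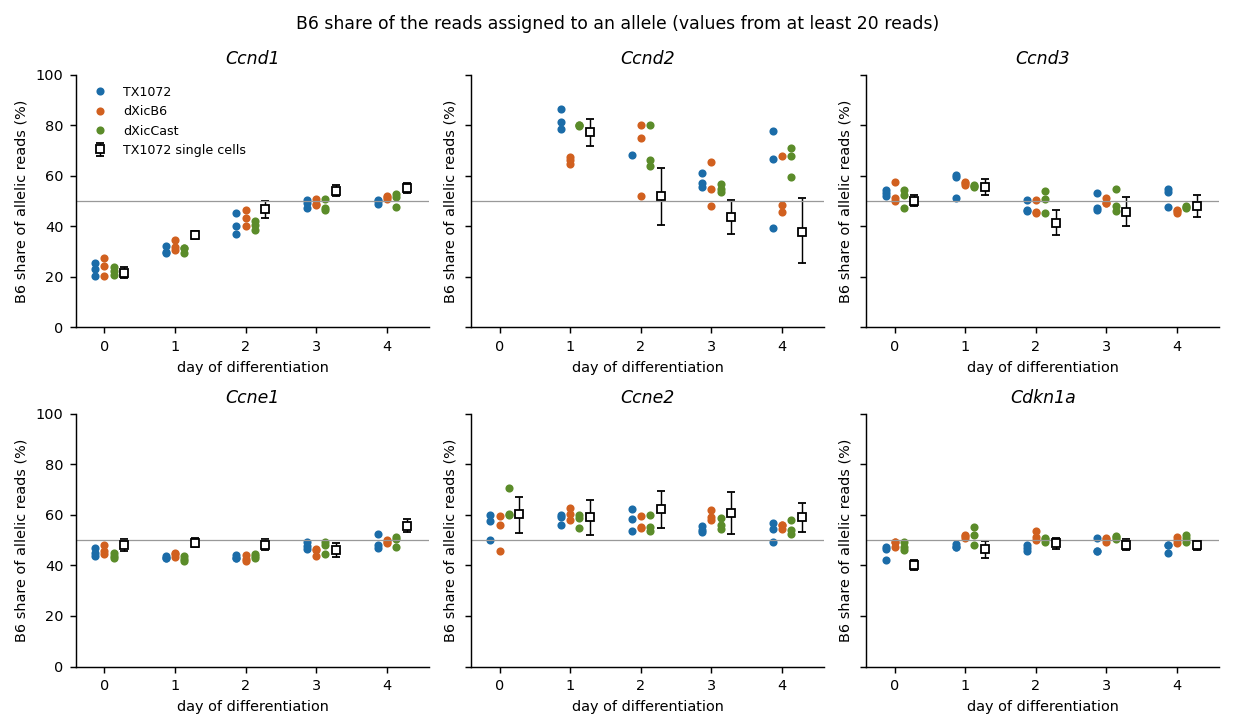
B6 share of allele-assigned reads (percent) by day for Ccnd1, Ccnd2, Ccnd3, Ccne1, Ccne2 and Cdkn1a, with a point per bulk library in the colour of its line, open squares with 95% intervals for TX1072 single cells and a grey line at equal shares. Shares from fewer than 20 reads are not drawn. Ccnd1 climbs in all 3 lines from between 20.2% and 27.3% on day 0 to between 47.5% and 52.9% on day 4.

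On day 0 in TX1072, 5 of 8 genes differed between the alleles, where 44.2% of all 13476 genes tested did. Besides Ccnd1, the log2 ratio of B6 to Cast was -0.28 ± 0.0561 for Ccne1 (adjusted p = 2.8e-05), 0.36 ± 0.107 for Ccne2 (0.00399), -0.27 ± 0.0542 for Cdkn1a (2.56e-05) and 0.18 ± 0.0726 for Ccnd3 (0.0382). The Ccnd3 value did not pass with DESeq2 (0.27), without a filter (0.0505) or without replicate 1 (0.23) or 3 (0.0866), and Ccne2 did not pass without replicate 1 (0.322) or 3 (0.0831). Cdkn1b, with 16 to 68 assigned reads per day 0 library, and Cdkn2a, with 138 to 185, were not called. Ccnd2 had no assigned read on that day.

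The change of the allelic ratio to day 4 passed for 1 of 8 genes in TX1072, Ccnd1 (15% of all genes), with Ccne1 at 0.23 ± 0.0822 (adjusted p = 0.0534, and 0.0176 without replicate 3). In dXicB6 it passed for 2 of 8 (17.3% of all genes), Ccnd1 and Ccne1 (0.24 ± 0.0819, adjusted p = 0.0312). In dXicCast it passed for 4 of 8 (22.6%), Ccnd1, Ccne1 (0.32 ± 0.0784, 0.00128), Ccne2 (-0.45 ± 0.170, 0.0483) and Cdkn1a (0.18 ± 0.0664, 0.0406). The Ccne1 share in TX1072 was 44.9%, 43.9% and 46.9% on day 0 and 52.6%, 48.0% and 46.8% on day 4, so that these groups overlapped.

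No allelic ratio of Ccnd2 is given for day 0, where its assigned reads in TX1072 were 0. On day 1 its B6 share was 81.4%, 86.3% and 78.3% in TX1072, of 69 to 86 reads per library, 67.2%, 64.6% and 66.1% in dXicB6 and 79.9%, 80.2% and 79.5% in dXicCast. By day 3 it was 55.6%, 61.0% and 57.1% in TX1072. In all 9 libraries of day 1 more of the reads came from B6 than from Cast. The TX1072 shares of day 3 lay below those of day 1, a difference that was not tested.

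Single TX1072 cells were counted by unique molecular identifiers (UMIs), which tag each captured 3′ end, with 277, 325, 341, 257 and 272 retained cells on days 0 to 4 and a median of 124651 to 171158 UMIs per cell and day. Retained cells are those of 2000 capture sites that passed the filters of the study, which removed sites imaged with no cell or several, and no site identifier was repeated in the table. With 1 culture per day there is no test between days, and all intervals below are exact at 95% confidence and cover counting error only. By the sample titles, only the capture columns of day 1 were also sequenced in a rapid run, and their counts are given once for both runs. The study gives different read lengths for its run modes. Single-cell differences of day 1 from other days therefore cannot be told apart from this further run. No cell type that lacks these genes was captured, so the share of cells that stray RNA would give was not measured.

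In single cells Ccnd1 had 151 CPM on day 0 (95% interval 147 to 155), 440 on day 1 (434 to 446), 83.0 on day 2 (80.2 to 85.8) and 214 on days 3 and 4. As a ratio to day 0 this was 2.91, 0.550, 1.42 and 1.42, against 2.96, 0.596, 1.34 and 1.44 in bulk replicate 1 from the same culture. The median cell held 15 Ccnd1 UMIs on day 0, 51 on day 1, 3 on day 2, 20 on day 3 and 24 on day 4. On day 1 323 of 325 cells had a UMI (99.4%), and on day 2 219 of 341 (64.2%, interval 58.9 to 69.3). With every cell thinned to 40000 UMIs these shares were 99.1% and 54.5%.

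Ccnd2 was carried by a minority of cells on every day. It had a UMI in 2 of 277 cells on day 0 (0.722%, interval 0.0876 to 2.58), which together held 21 UMIs, in 121 of 325 on day 1 (37.2%, 32.0 to 42.7), 57 of 341 on day 2 (16.7%, 12.9 to 21.1), 98 of 257 on day 3 (38.1%, 32.2 to 44.4) and 49 of 272 on day 4 (18.0%, 13.6 to 23.1). Thinned to 40000 UMIs, the shares were 0.722%, 29.5%, 12.6%, 31.1% and 12.5%. Cells with a Ccnd2 UMI held 17.2 of them on average on day 1 and 14.4 on day 3, and the highest cell held 135. Over the 10 capture columns of day 1 the level ranged from 6.89 to 111 CPM, with a median of 50.3.

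Ccnd3 was found in all 277 cells on day 0 and all 325 on day 1, with a median of 105 and 65 UMIs, and still in 94.7% of cells on day 2, with a median of 14 UMIs. Its level fell from 810 CPM (801 to 819) to 151 (147 to 155) on day 2 and was 239 (234 to 243) on day 4. The ratio of day 4 to day 0 was 0.295, against 0.223 in bulk replicate 1. The median cell thus lost most of its Ccnd3 UMIs while nearly every cell still had some.

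Ccne1 had 236 CPM on day 0 (231 to 241), 514 on day 1 (508 to 521), 275 on day 2, 208 on day 3 and 184 on day 4, in 92.6% to 99.4% of cells. Ccne2 lay between 28.9 and 45.4 CPM in 52.6% to 63.4% of cells. Its day 4 ratio to day 0 was 1.24 (1.16 to 1.33) in cells and 0.879 in bulk replicate 1.

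Cdkn1a had 284 CPM on day 0 (279 to 290), 90.7 on day 1 (87.9 to 93.5), 225 on day 2, 287 on day 3 and 304 on day 4 (299 to 309). The share of cells with a UMI was 97.1% on day 0, 70.5% on day 1 and 96.7% on day 4, and thinned it was 94.9%, 61.8% and 88.6%. The day 1 level was 0.319 of day 0 in cells and 0.282 in bulk replicate 1. On day 4 the ratio was 1.07 (1.04 to 1.10) in cells and 0.626 in bulk replicate 1, in opposite directions. Dividing by size factor and UMI total together turned the single-cell log2 ratio from 0.10 to -0.16.

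Cdkn1b was sparse, with 232 to 715 UMIs per day in 17.5% to 37.9% of cells, at 9.64 CPM on day 0 (8.70 to 10.7), 5.96 on day 1 (5.22 to 6.77) and 15.7 on day 4 (14.6 to 16.9). Cdkn2a had 73 UMIs on day 0 and 183 on day 1, or 1.91 CPM (1.50 to 2.40) and 4.32 (3.72 to 5.00). Its ratio of day 1 to day 0 was therefore 2.26 (1.72 to 3.01) in cells and 0.611 in bulk replicate 1, in opposite directions. In cells the ratio was 1.27 (0.937 to 1.74) on day 2, 1.24 (0.888 to 1.72) on day 3 and 1.16 (0.845 to 1.59) on day 4. Bulk replicate 1 gave 0.655, 0.427 and 0.724 on these days, each below the interval of the cells. Over the 10 capture columns Cdkn2a ranged from 0.256 to 6.71 CPM on day 0 and from 2.11 to 6.54 on day 1, so that the columns of the 2 days overlapped.

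**Figure D4:**
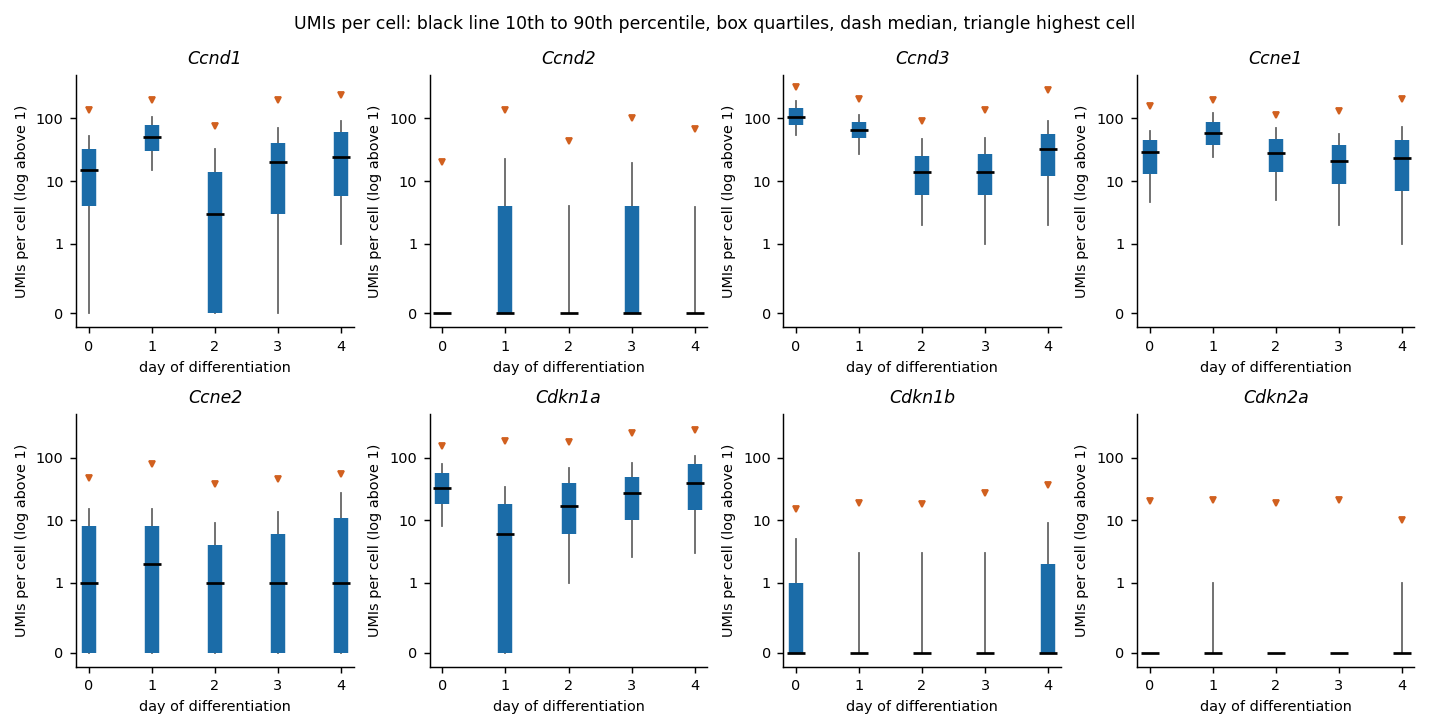
UMIs per retained cell of each of the 8 genes by day (axis linear to 1 and logarithmic above), over the 277, 325, 341, 257 and 272 cells of days 0 to 4. Boxes span the quartiles with a dash at the median, lines run from the 10th to the 90th percentile, and triangles mark the highest cell. The median lies at 0 UMIs for Ccnd2, Cdkn1b and Cdkn2a on every day, and for Ccnd3 it drops from 105 on day 0 to 14 on day 2.

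The spliced and unspliced UMIs were deposited as separate counts, and most unspliced UMIs are not part of the totals above, which count reads over exons. Unspliced UMIs were 10.7% of all UMIs on day 0 and 13.3% on day 1, and under 1.1% of those of Ccnd1 and Ccne1 on every day. For Cdkn2a they were 223 of 292 (76.4%, interval 71.1 to 81.1) on day 0, 201 of 379 on day 1 (interval 47.9 to 58.1), 72.2% on day 2, 67.1% on day 3 and 64.9% on day 4. The number of unspliced Cdkn2a UMIs was thus similar on these first days, while spliced ones numbered 69 and 178. Ccne2 had 8.64% to 13.0% unspliced UMIs and Cdkn1a 3.67% to 6.97%, the latter highest on day 1. The unspliced share of Ccnd3 was 0.971% on day 0 and 5.53% (5.00 to 6.11) on day 2.

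Allele-assigned UMIs gave the same course for Ccnd1. Its B6 share was 21.6% of 1419 UMIs on day 0 (19.5 to 23.8), 36.4% on day 1 (34.8 to 38.0), 46.6% on day 2 (43.2 to 49.9), 54.1% on day 3 (51.8 to 56.4) and 55.0% on day 4, with 50.8% to 51.3% over all genes. On day 0, 184 cells had a Cast UMI of Ccnd1, 68 had a B6 UMI and 54 had both. On day 4 the numbers were 152, 158 and 113. For Ccnd2 the B6 share was 77.3% of 247 UMIs on day 1 (71.6 to 82.4) and 43.5% of 214 on day 3 (36.7 to 50.4). On day 1, 45 cells had a B6 UMI of Ccnd2, 21 had a Cast UMI and 10 had both, and on day 3 the numbers were 30, 32 and 8. These intervals count UMIs, so the spread between so few cells is not in them. The bulk TX1072 libraries of day 3 gave 55.6% to 61.0%, with B6 the larger share.

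Across the cells of a day, each member was set against the summed level of gene lists by rank correlation, as a description of cells that share a culture and a chip. Cdkn1a was related to 20 other p53 targets, with Spearman's rho of 0.30 on day 0, 0.53 on day 1, 0.55 on day 2, 0.52 on day 3 and 0.40 on day 4. Its rho with the UMI total of the cell was between 0.03 and 0.24, the highest on day 1. Ccne1 followed 20 S phase genes, with rho between 0.19 on day 1 and 0.40 on day 3, and Ccne2 with rho between 0.16 and 0.31. With 20 mitotic genes rho was between -0.28 and 0.03 for Ccne1. Between pairs of the 8 genes rho lay between -0.19 and 0.32 over 140 pairs of genes and days, the highest being Ccnd1 with Ccnd2 on day 3.

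The other genes of the pathway were read from lists of known members in the bulk TX1072 libraries, where the median log2 fold change of all genes from day 0 to day 4 was -0.03. Over that interval 30.2% of all genes were called higher and 29.4% lower, and the counts of each list are to be read against these shares. Of the G1 kinases, Cdk2, the partner of cyclin E, fell by 1.08 ± 0.0879 (adjusted p = 5.87e-09), while Cdk4 (-0.12) and Cdk6 (0.23), the partners of cyclin D, did not pass. The other 4 CDK inhibitors all changed. Cdkn1c (p57) stood at 0.408 ± 0.0586 CPM (SD, n = 3) on day 0 and at 6.45 ± 0.499 on day 4. Its log2 fold change was 3.97 ± 0.232 by edgeR (adjusted p = 5.98e-11), and Cdkn2b (p15) rose by 1.48 ± 0.174. Cdkn2c (p18) and Cdkn2d (p19Ink4d) fell by 2.11 and 0.42. Of the pocket proteins, which cyclin-CDK complexes phosphorylate, Rb1 rose by 1.25 ± 0.242 and Rbl1 and Rbl2 fell by 0.99 and 0.54.

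Of 8 E2F factors 2 rose and 4 fell, with E2f7, a repressor, at 2.23 ± 0.156 and the activators E2f1 and E2f2 at -1.70 ± 0.154 and -2.36 ± 0.154. Of 20 S phase genes 16 fell and 0 rose by edgeR, with a median of -0.61. Among them were Ung (-1.54), Mcm6, a subunit of the replicative helicase (-1.01), and Rrm2, a subunit of ribonucleotide reductase (-0.97). In dXicB6 the count was 15 of 20 lower, where 29.5% of all genes were. On day 1 in TX1072, 4 of the 20 S phase genes were lower and 3 higher, where 23.4% of all genes were lower and 23.5% higher. Of 20 mitotic genes 2 rose and 5 fell to day 4 (median -0.19), a smaller share than among all genes, with Cdc20 at 0.46 and Ube2c at -0.79.

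Of 15 regulators of CDK activity and cyclin turnover 2 rose and 7 fell to day 4 (median -0.29), and 9 called of 15 is close to the 59.6% of all genes. Cks1b, which helps to degrade p27, rose by 0.81 ± 0.115, the phosphatase Cdc25b rose by 0.64 ± 0.107, and the inhibitory kinase Pkmyt1 fell by 1.26. The cyclin D1 ubiquitin ligase subunit Fbxo31 fell by 0.67.

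Of 20 p53 targets other than Cdkn1a 14 rose and 3 fell from day 0 to day 4, with a median of 0.76. Perp rose by 4.68 ± 0.170, Plk2 by 3.52 ± 0.184 and Fas by 3.18 ± 0.348, whereas Gdf15 fell by 3.41, Sesn1 by 0.71 and Ei24 by 0.41. Cdkn1a itself was lower over this interval (-0.45). From day 1 to day 4, when Cdkn1a rose by 1.34, again 14 of the 20 rose and 2 fell, with a median of 0.95, where 30.7% of all genes rose and 28.1% fell. The summed level of the 20 was 1580 to 1770 CPM on day 0 and 1420 to 1770 on day 1. On days 2 and 4 it was 3010 to 3490 and 2820 to 3260. The summed level thus overlapped between days 0 and 1, where Cdkn1a was lower. Counted by gene, 3 of the 20 were higher and 6 lower on day 1 than on day 0, where 23.5% and 23.4% of all genes were.

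For each gene the most similar courses over the 15 TX1072 libraries were taken from 11863 genes with a mean of at least 100 counts, by Pearson's r of log2 CPM. Because all libraries share the same 5 days, many genes follow any such course. For Ccnd3 they were Accs (r = 0.987), Kank4 (0.986) and Fam189a2 (0.985), at 0.914, 0.962 and 0.973 over the 30 deletion-line libraries. For Ccne1 they were Myo1f (0.988), Lrmp (0.979) and 9430038I01Rik (0.977), at 0.936, 0.931 and 0.890. Ccnd1 was nearest to Syne2 (0.959), Ptgs2 (0.952) and Itga9 (0.939), at 0.74, 0.827 and 0.914 in the deletion lines.

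Ccnd2 was nearest to Slc35f1 (r = 0.957), Ajuba (0.939) and Trim44 (0.930), at 0.924, 0.898 and 0.904 in the deletion lines. Cdkn1a was nearest to AU022252 (0.931), Rad9a (0.925) and Cuedc2 (0.917), at 0.785, 0.77 and 0.739 in the deletion lines. Cdkn1b was nearest to Mogat2 (0.942), Gucd1 (0.940) and Atg4c (0.937), at 0.837, 0.739 and 0.745 there. Cdkn2a was nearest to Bad (0.951), Smim20 (0.940) and Arpc1b (0.939), at 0.867, 0.696 and 0.938. The nearest of Ccne2 reached only 0.868 (Dld), 0.867 (Gm49336) and 0.862 (Pafah1b1), with 0.839, 0.914 and 0.895 in the deletion lines.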

How the data were processed

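Bulk RNA-seq gave 15 TX1072 and 30 deletion-line libraries, and single TX1072 cells were captured on microfluidic chips. The authors aligned reads with STAR (2.5.2b) to mm10 with the variants between the strains masked, and deposited raw counts per gene from featureCounts for all reads and for reads assigned to either allele with SNPsplit. For single cells the authors deposited UMI counts per gene and capture site, in total, per allele and as spliced and unspliced UMIs. The cells kept by the study and their size factors were taken from its supplementary list, and 75 rows of spike-in RNA were left out. All 8 genes and all gene lists were chosen with earlier results of these data known. The genes named from a list are at most 3 per direction, those with the largest changes past the test from day 0 to day 4 in TX1072, and every gene of lists of up to 5.

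Counts were filtered with filterByExpr, scaled by TMM and tested across all genes with the quasi-likelihood test of edgeR (4.0.16, R 4.3.3), two-sided, with Benjamini-Hochberg adjusted p-values and a threshold of 0.05. The 15 TX1072 libraries were fitted together, and the 30 deletion-line libraries in another fit. Alleles were compared within libraries. Levels are CPM after TMM scaling, and log2 CPM used a pseudocount of 0.5. Single-cell CPM is the sum of UMIs divided by size factors over the sum of UMI totals divided likewise. For shares at equal depth each cell was thinned to 40000 UMIs, which no retained cell fell short of. Intervals are exact (Poisson for counts, Clopper-Pearson for shares) at 95% confidence. The fits were tested on simulated data. Alternatives were DESeq2 (1.42.0), its size factors, no filter, TMM factors of autosomal genes, a replicate block and leaving out each replicate.

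Per the study's methods, each replicate was differentiated on its own day, so that within a line a number marks 1 differentiation. Whether equal numbers of both deletion lines share a day is not given in the sources used here. Between those lines the block is therefore given only among the alternatives at the end, where its calls rest on that unknown pairing. Within lines, deviations from the group means correlated at a median r of 0.126 between libraries of the same number in TX1072, 0.198 in dXicB6 and 0.145 in dXicCast, against -0.0678, -0.102 and -0.114 between numbers. P-values measure the spread between such differentiations of single clones.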

Additional observations from a re-analysis of the deposited data

How the results depend on the processing

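Of 1244 values of the 8 genes under the alternatives, 1153 kept their direction and their side of the threshold, 46 lost and 18 gained a call, and 27 changed direction, none of which was called in either setting. The cause was not tested for any of these.

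Without 1 replicate at a time, the number of the 8 genes called ranged from 4 (without replicate 3) to 7 for day 2 against day 0 and from 3 (without replicate 3) to 6 for day 3 against day 0 in TX1072. It ranged from 0 to 1 for the lines against each other on day 0 (0 without replicate 3), on day 1 (0 without replicate 1 or 2) and on day 2 (0 without replicate 2), and was 0 in every such fit on days 3 and 4, where 1 and 3 genes were called with all libraries. For the alleles of TX1072 on day 0 it was 3 to 5 (3 without replicate 1 or 3), and for the change of the allelic ratio 1 to 2 (2 without replicate 3). Without a filter on low counts 2 genes were called between the lines on day 0, 2 on day 2 and 1 for the difference of the change from day 1 to day 4. With the replicate block it was 2 on day 0, 2 on day 2 and 4 on day 4, with Cdkn2a (0.51, adjusted p = 0.0453), Ccnd3 (-0.50, 0.0107) and Cdkn2a (0.66, 0.0296) gained. Between the lines replicates share only a number: on the same day the deviations of equal numbers correlated at a median r of 0.203, over 0.1 in 9 of 15 pairs, against -0.0936 for other numbers. Apart from the calls given with the results, the block changed no other call, and it cannot be added to the allelic fit, which compares within libraries. Leaving out the 3 dXicCast day 0 libraries, an alternative chosen after seeing the data, changed no count.

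Among all genes, calls between the lines numbered 80 on day 1 against 147 with DESeq2 (64 higher and 83 lower, against 46 and 34), 198 without a filter and 2 to 24 without a replicate. They numbered 74 on day 2 against 140, 200, 124 with the block and 0 to 30, 251 on day 3 against 477, 575, 447 and 10 to 43, and 1165 on day 4 against 1772 with the block and 342 to 424 without a replicate. On day 0 they numbered 3929 against 2302 and 791 without replicates 1 and 3. For the difference of the change from day 1 to day 4 the number was 149 against 355, 412, 255 and 0 to 33, and for the change of the allelic ratio 2018 against 1342 with DESeq2.

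Log2 values that turned direction did not all lie near 0, the allelic change of Cdkn1b in TX1072 being 0.36 ± 0.481 with all libraries. For Cdkn2a from day 1 to day 4 in TX1072 the log2 value was -0.0167 without a filter and -0.0281 with TMM factors of autosomal genes. It was -0.0776 to 0.2257 when a replicate was left out. The Ccne2 change from day 0 to day 4 in dXicB6 was 0.0042 with the block and -0.1953 to 0.2522 without a replicate, and its line difference was -0.0266 with the block and -0.1974 to 0.2563. The line difference of Ccnd1 on day 0 was 0.007 with DESeq2, 0.0068 with its size factors, 0.0216 without a filter, 0.0272 with autosomal factors and -0.0189 to 0.0048 without a replicate. That of Ccnd3 on day 3 was -0.0035 without a filter. The single-cell ratio of Cdkn1a was -0.16 with size factor and UMI total together. Leaving out a replicate gave -0.0053 to 0.1144 for Cdkn1b from day 0 to day 4 in TX1072, -0.128 to 0.061 for Ccne1 in dXicB6 and -0.1232 to 0.0702 for Cdkn1b in dXicCast, and -0.0805 to 0.2585 for Cdkn2a from day 1 to day 4 in dXicCast. Between the lines it gave -0.0477 to 0.171 for Ccnd3 on day 0, -0.1172 to 0.1875 for Ccne2 on day 1, -0.1519 to 0.0322 for Ccnd1 and -0.0304 to 0.2324 for Ccnd2 on day 3, and -0.0099 to 0.1391 for Ccne2 on day 4. For the allelic ratio it gave -0.1629 to 0.0542 for Ccnd3 and -0.1534 to 0.8788 for Cdkn1b. Depth limits Ccnd2 on day 0, the allelic reads of Ccnd2 and Cdkn1b, and Cdkn1b and Cdkn2a in single cells.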
